A study of Homo sapiens with 12 samples.

Results

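The genes described here are the noncoding hosts of small nucleolar RNAs (snoRNAs): all genes whose symbol begins with SNHG, together with GAS5, ZFAS1, DANCR and EPB41L4A-AS1. The rule uses names only and gave 26 of the 58174 genes in the deposited tables. A host gene is transcribed and spliced like a messenger RNA gene, and its snoRNAs are trimmed out of the excised introns by exonucleases after debranching. Box C/D snoRNAs guide ribose methylation and box H/ACA snoRNAs guide pseudouridylation of ribosomal and spliceosomal RNA. The spliced exons of many of these hosts carry no conserved reading frame, and several are known targets of nonsense-mediated decay, GAS5 among them.

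RNA was sequenced from 2 established human glioblastoma cell lines, LN229 and U251. Each line was reverse transfected without siRNA (mock), with a non-targeting control siRNA, or with siRNA against XRN2, the nuclear 5′-to-3′ exonuclease that acts in transcription termination, and total RNA was taken 72 hours later. There were 2 libraries per group, 12 in all, with 4846768 to 7469052 reads in annotated exons each. Within a group the 2 libraries carry replicate numbers, with no word on whether 2 cultures were used. The p-values below then rest on a spread between libraries that could be purely technical. All 6 replicate pairs differed by more than counting noise (chi-square per gene from 1.71 to 25.4).

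The target itself separated the groups. XRN2 exon reads in LN229 were 33.5 and 25.6 CPM (exon reads scaled to the library's effective size) with XRN2 siRNA, 202 and 243 with control siRNA and 229 and 235 in mock. In U251 they were 31.1 and 26.2 against 144 and 134 with control siRNA and 138 and 143 in mock. XRN2 fell by 2.90 on the log2 scale in LN229 (adjusted p 3.75e-06, edgeR quasi-likelihood test) and fell by 2.28 in U251 (adjusted p 6.50e-05). GFAP, an astrocytic filament gene, ranged from 2351 to 6903 CPM in U251 and from 1.05 to 4.31 CPM in LN229. S100B, on the same list of 10 glioma line markers, went the other way. It ranged from 294 to 569 CPM in LN229 and from 14.9 to 21.98 CPM in U251. OLIG2 ranged from 6.74 to 9.68 CPM in LN229 and was at 0 in 5 of the 6 U251 libraries. NES, VIM, CD44 and TNC were each at 338 CPM or more in every library of both lines. In mock, 3 of the 10 markers were higher in LN229 and 6 lower (adjusted p under 0.05, edgeR). The epithelial markers summed to at most 0.382 CPM in any library, and PTPRC and CD3E, which define leukocytes and T cells, to at most 0.254 and 0.136 CPM each. The third leukocyte marker, CD68, a lysosomal protein abundant in macrophages, ranged from 47.4 to 69.7 CPM in U251 and from 1.40 to 9.68 CPM in LN229. The endothelial markers summed to at most 6.84 CPM in any library. The neuron markers (SYT1, SNAP25 and RBFOX3) summed to 44.2 to 62.6 CPM in LN229. In U251 they summed to 56.8 CPM in mock replicate 2 and to 10.6 to 13.7 CPM in the other libraries.

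The deposited tables place 136 annotated snoRNA or scaRNA genes inside 25 of the 26 hosts on the host's strand, 84 of them in SNHG14, the long transcript through the Prader-Willi region, and 52 in the others. GAS5 had no such row in these tables. Box C/D snoRNAs are recognised by box C near the 5′ end, searched here as TGATGA within the first 25 bases, and box D near the 3′ end, searched as CTGA within the last 25 bases. Of the 19 SNORD sequences searched outside SNHG14, all 19 held box D and 11 held both, and 1 further SNORD row was not searched. The snoRNAs of the 2 hosts whose introns and exons are followed most closely below are shown from GENCODE 29 transcripts (GRCh38), 5′ to 3′ as DNA letters, with the 2 boxes in capitals. ZFAS1 holds 3 close relatives at chr20:49278940-49279028, chr20:49280319-49280409 and chr20:49280683-49280772, plus strand.
SNORD12C: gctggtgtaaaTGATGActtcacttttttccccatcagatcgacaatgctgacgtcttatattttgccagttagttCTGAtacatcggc
SNORD12B: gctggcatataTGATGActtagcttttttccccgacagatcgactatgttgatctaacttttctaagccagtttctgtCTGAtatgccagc
SNORD12: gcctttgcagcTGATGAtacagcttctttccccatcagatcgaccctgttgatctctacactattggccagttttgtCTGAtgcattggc

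SNHG1, on the minus strand of chromosome 11, holds 7 such rows, of which 2 are shown, at chr11:62855564-62855632 and chr11:62855012-62855083.
SNORD25: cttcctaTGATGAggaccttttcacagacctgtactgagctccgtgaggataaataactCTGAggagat
SNORD27: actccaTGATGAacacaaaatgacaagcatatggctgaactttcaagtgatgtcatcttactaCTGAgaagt

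The small RNAs themselves had no reads. All 136 snoRNA rows inside the hosts, and all 992 snoRNA and scaRNA rows of the tables, were listed at 0 exon reads in all 12 libraries. How the authors' counting treated these short rows is not given in the sources used here. What follows therefore concerns the host transcripts, and says nothing of the level of the snoRNAs.

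The annotated starts of 22 members were found among the RefSeq promoters (GRCh38.p14). A start at C followed by C or T over at least 5 bases in all, the base composition of a terminal oligopyrimidine tract, was present in 6 of the 22 (27.3%), in 18 of 45 listed protein-coding snoRNA hosts (40%) and in 1429 of all 35116 promoters (4.07%). GAS5 and DANCR did not match, with a run of 0 bases at the annotated start. For GAS5 the window read, chr1:173869016-173869075 (minus), lies wholly upstream of the gene's start in the deposited tables, at 173868882. A run at that other start was not searched, so the lack of a match does not show that GAS5 lacks the tract. The run was read at one annotated start per gene, and hosts whose annotated start lies some bases away from the used one are missed. ZFAS1, SNHG5 and SNHG12 are shown from 30 bases before to 30 bases after the start, with the run in capitals, at chr20:49278612-49278671 (plus), chr6:85678704-85678763 (minus) and chr1:28581844-28581903 (minus).
ZFAS1: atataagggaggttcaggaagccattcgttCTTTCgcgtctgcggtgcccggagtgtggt
SNHG5: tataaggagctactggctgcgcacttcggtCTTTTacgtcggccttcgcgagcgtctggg
SNHG12: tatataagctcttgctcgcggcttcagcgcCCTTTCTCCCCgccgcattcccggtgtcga

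Of the 26 members, 23 had enough exon reads to be tested. SNHG22, SNHG25 and SNHG26 did not, with 1, 21 and 16 exon reads over all 12 libraries. By total exon reads the member with the highest level was SNHG16, at a mean of 132 CPM over the 12 libraries, followed by GAS5 at 92.7, SNHG1 at 80.5, SNHG3 at 65.1, SNHG5 at 60.1, SNHG14 at 59.2, SNHG6 at 53.7 and ZFAS1 at 48.0 CPM. On unique exon reads summed over the 12 libraries the order was another, with 6847 for GAS5, 5968 for SNHG1, 4476 for SNHG5, 4343 for SNHG16 and 634 for SNHG3. These means pool lines that differ, as for SNHG5, with a median of 98.6 CPM in LN229 and 16.2 in U251. Per kilobase of annotated exon the order changed: SNHG6 led with 43.1 RPKM, SNHG16 had 33.2 and GAS5 25.5, and SNHG14, whose annotated exons span 42470 bases, had 1.39. The tested member with the fewest reads was SNHG9, at 2.61 CPM.

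**Figure D1:**
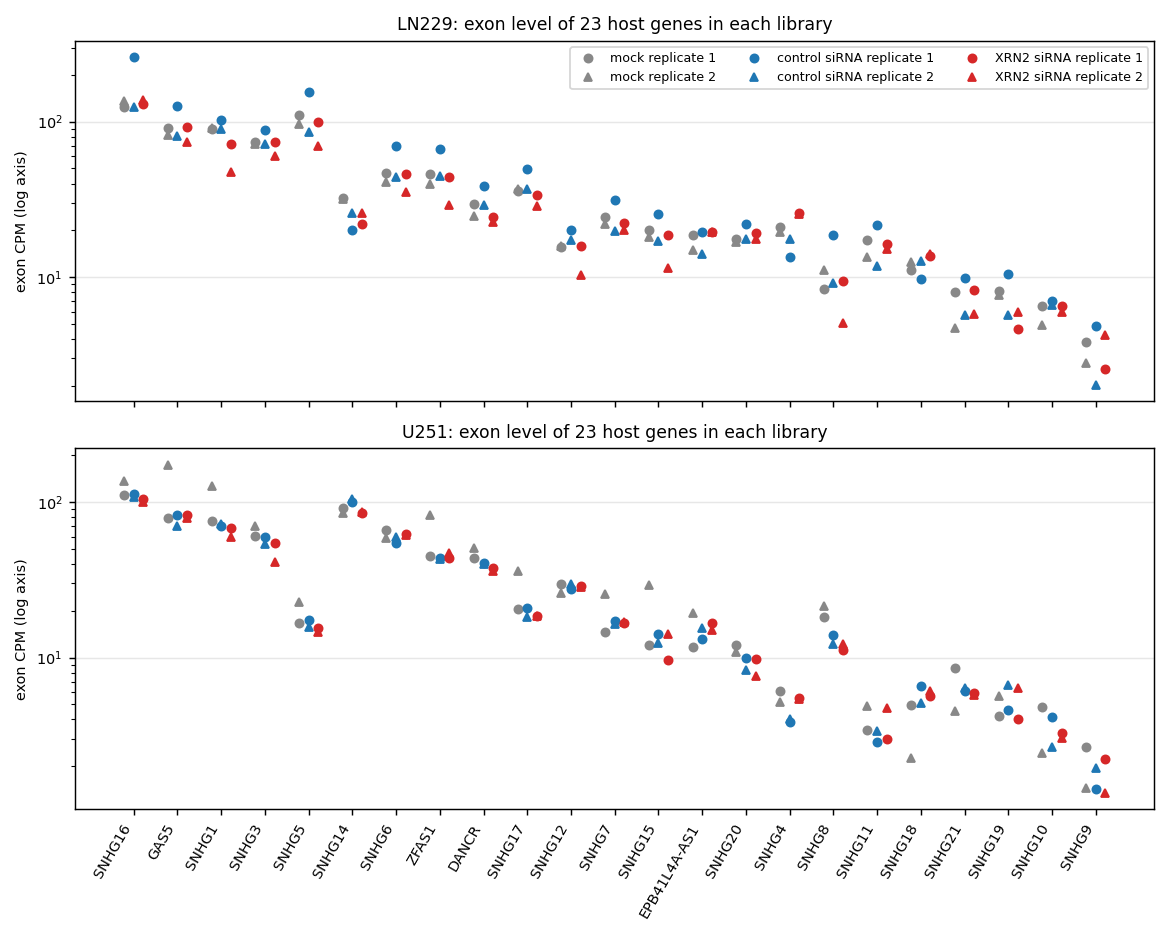
Exon CPM (log axis) of the 23 tested host genes in each library of LN229 (top) and U251 (bottom), ordered by mean level; circles are replicate 1 and triangles replicate 2. Control siRNA replicate 1 lies above the other LN229 libraries for most genes, up to 260 CPM for SNHG16, and mock replicate 2 lies above the other U251 libraries for GAS5 (174 CPM) and several others.

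For 7 hosts many exon reads were not counted as unique in the tables, which give a total and a unique number without defining them. The unique share was 2.86% for SNHG20, 13.1% for SNHG3, 16.5% for SNHG4, 23.8% for SNHG10, 26.5% for EPB41L4A-AS1, 45.0% for SNHG16 and 75.9% for SNHG21, against at least 95% for the other tested members. SNHG3 overlaps RCC1, SNHG4 overlaps MATR3_1 and SNHG20 overlaps SEC14L1 on the same strand, and SNHG14 overlaps SNRPN. In all, 12 members overlap a protein-coding gene on the opposite strand. The kit, TruSeq RNA v2, does not mark strand, so reads of such a pair cannot be told apart.

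**Figure D2:**
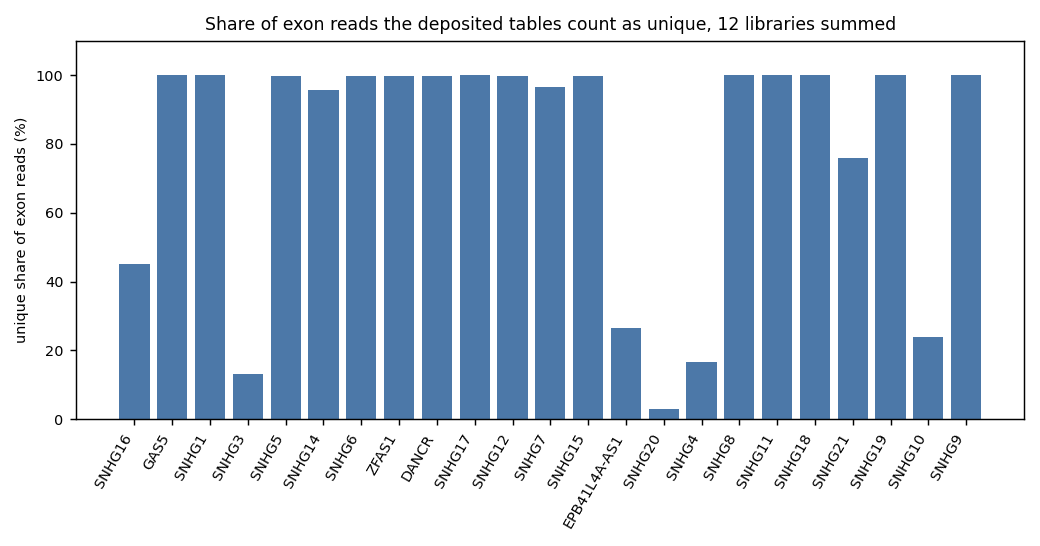
Share of exon reads counted as unique in the deposited tables (percent, bars from 0), summed over 12 libraries, for the 23 tested host genes in order of mean level. SNHG20 (2.86%), SNHG3 (13.1%) and SNHG4 (16.5%) have the lowest shares.

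Before the effect of XRN2 siRNA is described, 2 libraries need to be set apart. In LN229, control siRNA replicate 1 was above replicate 2 for 20 of the 23 members, by a median of 0.55 on the log2 scale. Across genes, its difference from replicate 2 went with shorter exon length (Spearman correlation -0.50), and intron reads made up 5.58% of its gene reads against 8.78% in replicate 2. In U251, mock replicate 2 held GAS5 at 174 CPM against 79.5 in replicate 1, ZFAS1 at 83.0 against 44.9, SNHG1 at 128 against 75.5 and SNHG15 at 29.2 against 12.04. In the same library the 17 listed genes of the unfolded protein and ATF4 stress response summed to 39038 CPM, against 7118 to 7852 CPM in the other 5 U251 libraries, and DDIT3, a transcription factor of that response, was at 404 CPM against 13.2 to 18.4. The part of exon length, intron share and stress genes in the members' values was not tested.

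No member passed the threshold of an adjusted p of 0.05 with XRN2 siRNA in either line, against either control, on exon reads (edgeR quasi-likelihood test, Benjamini-Hochberg over 14232 genes). Of all genes tested, 3.16% passed in LN229 against control siRNA, 1.29% in LN229 against mock, 0.00703% in U251 against control siRNA and 0.0492% in U251 against mock. For the mean change of both lines against control siRNA 1.22% of genes and 0 members passed, and for the difference of the change between the lines 0% of genes and 0 members. At an unadjusted p under 0.05 there were 6 members in LN229 and 0 in U251 against control siRNA, and 2 and 6 against mock. Of all 14232 genes, 3165 in LN229 and 553 in U251 were at that level against control siRNA, and 2355 and 1526 against mock. Control siRNA and mock differed in no member and in 0% of genes in either line. At an unadjusted p under 0.05 there were 2 and 3 members, and 647 and 682 of all genes, in LN229 and U251.

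In LN229 against control siRNA, 19 of 23 members had a log2 fold change below 0, with a median of -0.31, while the median of all genes was at -0.00. Without control siRNA replicate 1 the median was -0.04 and 12 of 23 were below 0, and with control siRNA replicate 2 as the only control siRNA library of each line it was -0.05 with 12 below 0. Against mock, the median was -0.12 with 14 below 0. In U251 the median was -0.08 against control siRNA, with 13 below 0, and -0.27 against mock, with 19 below 0. Without mock replicate 2 the U251 median against mock was -0.13. Both comparisons within a line use the same XRN2 siRNA libraries. In bulk RNA, fewer cells with a transcript and less of it per cell cannot be told apart.

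**Figure D3:**
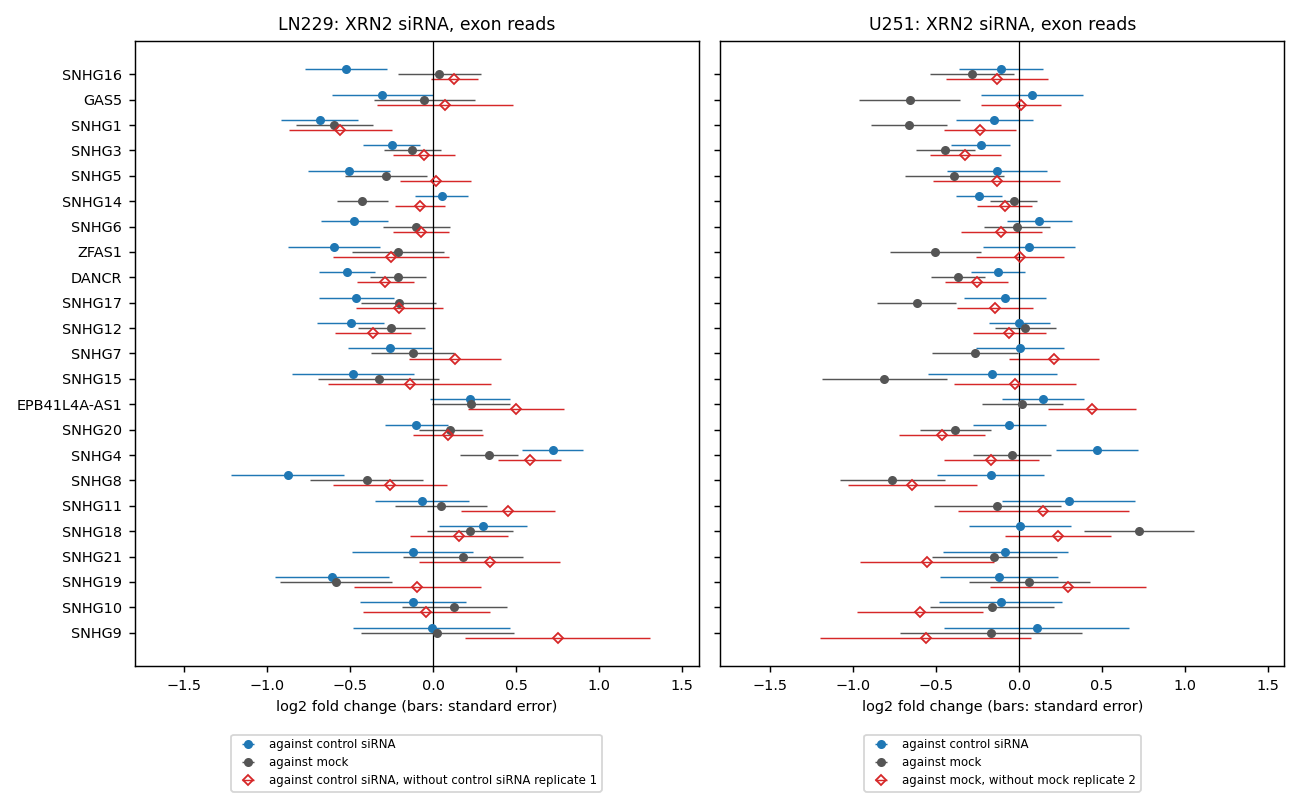
Exon log2 fold change with XRN2 siRNA of the 23 tested host genes in LN229 (left) and U251 (right); bars are standard errors. Filled points are against control siRNA (blue) and mock (grey), and open diamonds leave out control siRNA replicate 1 in LN229 (median -0.04) or mock replicate 2 in U251 (median -0.13).

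SNHG1, the host of SNORD25 to SNORD28 and also known as UHG, was lowest with XRN2 siRNA in both lines. Its exon level in LN229 was 71.9 and 47.3 CPM with XRN2 siRNA, 102 and 90.3 with control siRNA and 90.1 and 90.7 in mock. U251 libraries held 68.3 and 59.9 CPM, against 69.9 and 72.4 with control siRNA and 75.5 and 128 in mock. The XRN2 siRNA libraries lay below the other 4 of their line, narrowly so in U251. The log2 fold change of SNHG1 against control siRNA was -0.69 ± 0.23 (SE) in LN229 (adjusted p 0.110, edgeR) and -0.15 ± 0.23 in U251 (adjusted p 1). Against mock it was -0.60 ± 0.23 in LN229 (adjusted p 0.214) and -0.67 ± 0.23 in U251 (adjusted p 0.382).

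DANCR, host of an H/ACA snoRNA in an intron and named for its effect on differentiation, was the other member lowest with XRN2 siRNA in both lines. It was at 24.3 and 22.6 CPM in LN229, against 38.3 and 29.3 with control siRNA and 29.6 and 24.9 in mock. The U251 values were 37.6 and 35.8 CPM, against 40.4 and 39.8 with control siRNA and 43.8 and 50.8 in mock. The XRN2 siRNA libraries lay below the other 4 of their line by a narrow margin, while control siRNA and mock overlapped in LN229. The change of DANCR in LN229 was -0.52 ± 0.17 against control siRNA (adjusted p 0.0998, edgeR) and -0.21 ± 0.17 against mock (adjusted p 0.602).

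Such separation was common among all genes. In LN229, both XRN2 siRNA libraries were below the other 4 for 3 of 23 members (DANCR, SNHG1 and SNHG17) and for 16.9% of all genes tested, and above them for SNHG4 and SNHG18 and for 16% of genes. In U251 they were below for 4 members (DANCR, SNHG1, SNHG5 and SNHG16) and 10.6% of genes, and above for 0 members and 13.8% of genes. In both lines at once they were below for 2 members and 4.38% of genes, and above for 0 members and 4.52% of genes.

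GAS5, a growth arrest transcript that rises when its decay on ribosomes slows, showed no shift beyond its spread. In LN229 it was at 92.3 and 74.2 CPM with XRN2 siRNA, 126 and 81.0 with control siRNA and 90.6 and 82.5 in mock. For U251 they were 82.2 and 78.5 CPM with XRN2 siRNA, 82.6 and 69.8 with control siRNA and 79.5 and 174 in mock. Apart from LN229 control siRNA replicate 1 and U251 mock replicate 2, the GAS5 libraries lay between 69.8 and 92.3 CPM in both lines. Its log2 fold change against control siRNA was -0.31 ± 0.30 (adjusted p 0.581, edgeR) in LN229 and 0.08 ± 0.31 (adjusted p 1) in U251.

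ZFAS1, antisense to the promoter of ZNFX1, was at 44.1 and 29.3 CPM with XRN2 siRNA in LN229, 67.2 and 45.0 with control siRNA and 45.9 and 39.7 in mock. Its U251 level was 43.4 and 47.1 CPM, 43.5 and 43.2 with control siRNA and 44.9 and 83.0 in mock. With mock included the groups overlapped in LN229, and in U251 they overlapped with either control, and ZFAS1 had a log2 fold change over control siRNA of -0.60 ± 0.28 (adjusted p 0.228, edgeR) in LN229 and 0.06 ± 0.28 (adjusted p 1) in U251.

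SNHG4 came nearest to the threshold and in the other direction. Its total exon level in LN229 was 25.9 and 25.4 CPM with XRN2 siRNA, 13.5 and 17.5 with control siRNA and 21.1 and 19.5 in mock. U251 had 5.50 and 5.40 CPM, 3.82 and 4.05 with control siRNA and 6.12 and 5.17 in mock. The log2 fold change of SNHG4 against control siRNA was 0.72 ± 0.18 (adjusted p 0.0504, edgeR) in LN229 and 0.59 ± 0.15 (adjusted p 0.0728) for the mean of both lines. Its unique exon reads were few, 25 and 24 with XRN2 siRNA in LN229, 15 and 16 with control siRNA and 22 and 21 in mock, and on unique reads the change was 0.39 (adjusted p 0.524). The overlapping MATR3_1 was at -0.02 ± 0.13 in the same comparison. On total exon reads against mock, the SNHG4 change in LN229 was 0.34 ± 0.18 (adjusted p 0.363, edgeR).

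SNHG16, host of the SNORD1 family, had different patterns on total and on unique reads. Its total exon level in LN229 was 130 and 137 CPM with XRN2 siRNA, 260 and 125 with control siRNA and 124 and 136 in mock. On unique reads the same libraries were at 65.9 and 72.1, 66.0 and 59.6, and 64.2 and 68.9 CPM. The high value of control siRNA replicate 1 is thus outside the unique reads. In U251 the total was 104 and 99.8 CPM with XRN2 siRNA, 112 and 108 with control siRNA and 112 and 136 in mock.

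SNHG3, which overlaps RCC1, was at 74.2 and 59.97 CPM with XRN2 siRNA in LN229, 88.8 and 71.4 with control siRNA and 74.4 and 72.2 in mock. U251 libraries were at 54.8 and 41.4, 59.2 and 53.7, and 60.2 and 70.7 CPM. The XRN2 siRNA and control siRNA libraries overlapped for SNHG3 in both lines, while RCC1, which encodes the guanine exchange factor of Ran, had a log2 fold change of -0.61 ± 0.14 in LN229 and so fell there (adjusted p 0.0360, edgeR) and was at -0.21 ± 0.14 (adjusted p 1) in U251.

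SNHG6, host of a box C/D snoRNA, was at 45.9 and 35.2 CPM with XRN2 siRNA in LN229, 69.8 and 43.8 with control siRNA and 46.4 and 41.1 in mock. Values in U251 were 62.4 and 61.3, 54.3 and 59.4, and 66.5 and 58.4 CPM. SNHG8, host of an H/ACA snoRNA, had the lowest fold change against control siRNA in LN229, -0.88 ± 0.34 (adjusted p 0.154, edgeR), from 9.498 and 5.08 CPM with XRN2 siRNA, 18.6 and 9.09 with control siRNA and 8.32 and 11.2 in mock. Its groups overlapped, and in U251 SNHG8 was at 11.1 and 12.2, 14.0 and 12.2, and 18.2 and 21.3 CPM. In LN229 against mock the SNHG8 change was -0.40 ± 0.34 (adjusted p 0.628, edgeR). EPB41L4A-AS1, host of SNORA13, was at 19.5 and 19.6 CPM with XRN2 siRNA in LN229. It was at 19.6 and 14.1 with control siRNA and 18.7 and 14.8 in mock. Its U251 values were 16.6 and 15.03, 13.2 and 15.5, and 11.7 and 19.4 CPM, in the same order of groups.

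The remaining members that passed between the lines (below) follow by library. SNHG14 was at 21.98 and 25.9 CPM with XRN2 siRNA in LN229, 20.2 and 25.8 with control siRNA and 32.5 and 31.9 in mock. In U251 it was at 85.6 and 86.6, 99.5 and 104, and 91.3 and 84.9 CPM. It was below mock in LN229 by a log2 fold change of -0.43 ± 0.15 (adjusted p 0.182, edgeR), at a level close to that of control siRNA. SNHG5 was at 100.1 and 69.3, 156 and 85.9, and 110 and 97.1 CPM in LN229 and at 15.6 and 14.7, 17.5 and 15.7, and 16.6 and 22.9 CPM in U251, in the same order of groups. The LN229 groups of SNHG5 overlapped. SNHG12 was at 15.7 and 10.3, 20.0 and 17.3, and 15.5 and 15.9 CPM in LN229. Its U251 values were 28.97 and 28.4, 27.7 and 29.6, and 29.8 and 26.1 CPM. SNHG11 was at 16.3 and 15.3, 21.6 and 11.8, and 17.3 and 13.5 CPM in LN229. Its U251 values were 2.97 and 4.73, 2.87 and 3.35, and 3.44 and 4.84 CPM. For both genes the XRN2 siRNA libraries overlapped those of mock in both lines. SNHG18 was at 13.6 and 14.03, 9.68 and 12.6, and 11.04 and 12.6 CPM in LN229 and at 5.65 and 6.08, 6.53 and 5.11, and 4.97 and 2.26 CPM in U251. SNHG20 was at 19.3 and 17.5, 21.99 and 17.7, and 17.6 and 16.8 CPM in LN229. In U251 it was at 9.81 and 7.60, 9.87 and 8.28, and 12.04 and 10.8 CPM. Nearly all SNHG20 reads were not counted as unique.

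Intron reads bear on the precursor of the host. SNHG3, SNHG4, SNHG20, SNHG22 and EPB41L4A-AS1 had 0 unique intron reads in all 12 libraries, and 15 members had enough to be tested. The split depends on annotation: annotated exons cover 95.6% of the SNHG1 gene and 72.9% of GAS5, so that unspliced reads of these hosts mostly count as exon, against 12.8% of ZFAS1. ZFAS1 had 105.4 intron reads per 100 exon reads over the 12 libraries, GAS5 4.80 and SNHG1 4.47. ZFAS1 overlaps ZNFX1 on the other strand. Of the exon reads of ZFAS1, 87.2% crossed an exon-exon junction, of those of GAS5 66.3% and of those of SNHG1 29.3%.

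No member passed on intron reads in either line against either control. The share of genes that passed was 0.301% in LN229 and 0.0456% in U251 against control siRNA, and 0.328% and 0.128% against mock, of 10969 genes. Unique intron reads of ZFAS1 in LN229 numbered 427 and 247 with XRN2 siRNA, 149 and 333 with control siRNA and 398 and 499 in mock, for a log2 fold change over control siRNA of -0.03 ± 0.22 (adjusted p 0.983, edgeR). For GAS5 they numbered 30 and 15, 22 and 21, and 28 and 31, with a log2 fold change of -0.51 ± 0.37 (adjusted p 0.656). For SNHG1 they numbered 26 and 13, 15 and 19, and 21 and 32, with a log2 fold change of -0.35 ± 0.38 (adjusted p 0.787).

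The member with the smallest intron p was DANCR in U251 against mock, with 12 and 9 unique intron reads with XRN2 siRNA, 8 and 9 with control siRNA and 14 and 39 in mock. Its log2 fold change was -1.45 ± 0.43 (adjusted p 0.198, edgeR), and -0.68 (adjusted p 1) without mock replicate 2. SNHG1 in the same comparison had 20 and 17, 25 and 22, and 20 and 37 reads, a log2 fold change of -0.75 ± 0.35 (adjusted p 0.544, edgeR). For both genes the high library was mock replicate 2, which stood apart.

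The exon change relative to the intron change was tested in 14 members, and none passed. Of 9783 genes, 0.276% passed in LN229 and 0.0204% in U251 against control siRNA, and 0.204% and 0.0102% against mock. The smallest adjusted p was that of ZFAS1 in LN229 against control siRNA, -0.53 ± 0.21 (adjusted p 0.387, edgeR), and in U251 ZFAS1 was at -0.13 ± 0.21 (adjusted p 1). In LN229, ZFAS1 had 44.7 intron reads per 100 exon reads in control siRNA replicate 1, which stood apart, and 125 in replicate 2. The values were 131 and 148 with XRN2 siRNA and 139 and 159 in mock.

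**Figure D4:**
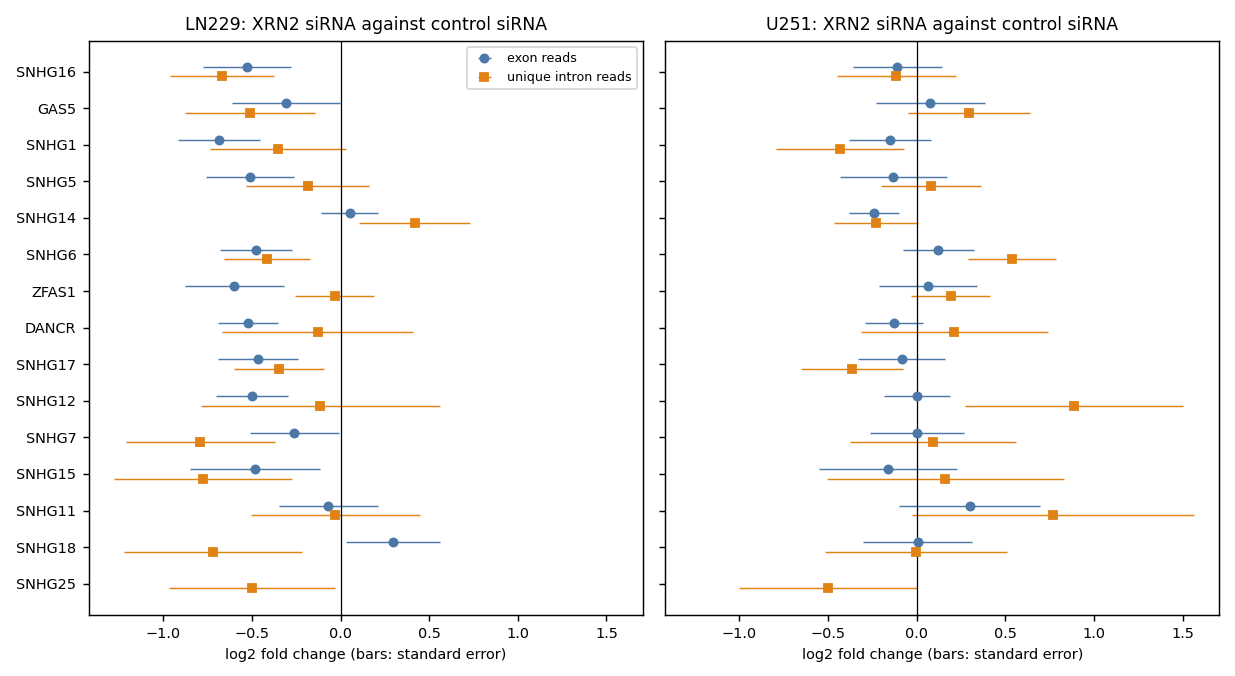
Log2 fold change with XRN2 siRNA against control siRNA on exon reads (circles) and unique intron reads (squares) for the 15 host genes tested on introns, in LN229 (left) and U251 (right); bars are standard errors and SNHG25 has no exon value. In LN229 the intron value of ZFAS1 is at -0.03 and its exon value at -0.60. The LN229 control siRNA libraries include replicate 1, which stood apart.

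The last comparison was of the lines themselves. In mock, 5 of 23 members were higher in LN229 and 5 lower (adjusted p under 0.05, edgeR), and 54.9% of all genes tested passed. SNHG5, host of SNORD50B, was highest over U251, at 110 and 97.1 CPM against 16.6 and 22.9, a log2 fold change of 2.38 ± 0.28 (adjusted p 1.26e-05). Over all libraries of a line it ranged from 69.3 to 156 CPM in LN229 and from 14.7 to 22.9 in U251. The share of SNHG5 exon reads across a junction also differed, from 90.0% to 92.4% in LN229 and from 51.7% to 65.5% in U251, without overlap.

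SNHG11 was higher in LN229 by 1.87 ± 0.33 (adjusted p 0.00034, edgeR), SNHG4 by 1.85 ± 0.21 (adjusted p 7.36e-06), SNHG18 by 1.73 ± 0.31 (adjusted p 0.000382) and SNHG20 by 0.59 ± 0.20 (adjusted p 0.0238) on the log2 scale. Most SNHG4 and SNHG20 reads were not counted as unique, and on unique reads SNHG4 was higher by 1.42 (adjusted p 0.00959). SNHG20 had 2 and 2 unique exon reads in the LN229 mock libraries and 1 and 4 in those of U251. These are too few to bear on its difference between the lines. SNHG14 was lower in LN229, at 32.5 and 31.9 CPM against 91.3 and 84.9, a log2 fold change of -1.45 ± 0.15 (adjusted p 2.94e-06, edgeR). SNHG8 was at -1.01 ± 0.32 (adjusted p 0.0157), SNHG12 at -0.83 ± 0.19 (adjusted p 0.00251), DANCR at -0.80 ± 0.16 (adjusted p 0.00109) and SNHG6 at -0.51 ± 0.20 (adjusted p 0.0434). SNHG6 lost the threshold without any 1 of the 4 mock libraries or any 1 of the 4 siRNA libraries of U251, with adjusted p from 0.0585 to 0.215, SNHG20 without LN229 mock replicate 1 (0.103), LN229 mock replicate 2 (0.0726) or U251 mock replicate 2 (0.111), and SNHG8 without U251 mock replicate 2 (0.0834).

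Over all 12 libraries, the 6 LN229 libraries lay above the 6 U251 libraries for 6 members (SNHG4, SNHG5, SNHG10, SNHG11, SNHG18 and SNHG20) and for 24.6% of genes, and below them for SNHG12 and SNHG14 and for 24.9% of genes. These are total exon reads, and most of those of SNHG4, SNHG10 and SNHG20 were not counted as unique. SNHG12 ranged from 10.3 to 20.0 CPM in LN229 and from 26.1 to 29.8 in U251. SNHG14 ranged from 20.2 to 32.5 CPM in LN229 and from 84.9 to 104 in U251.

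**Figure D5:**
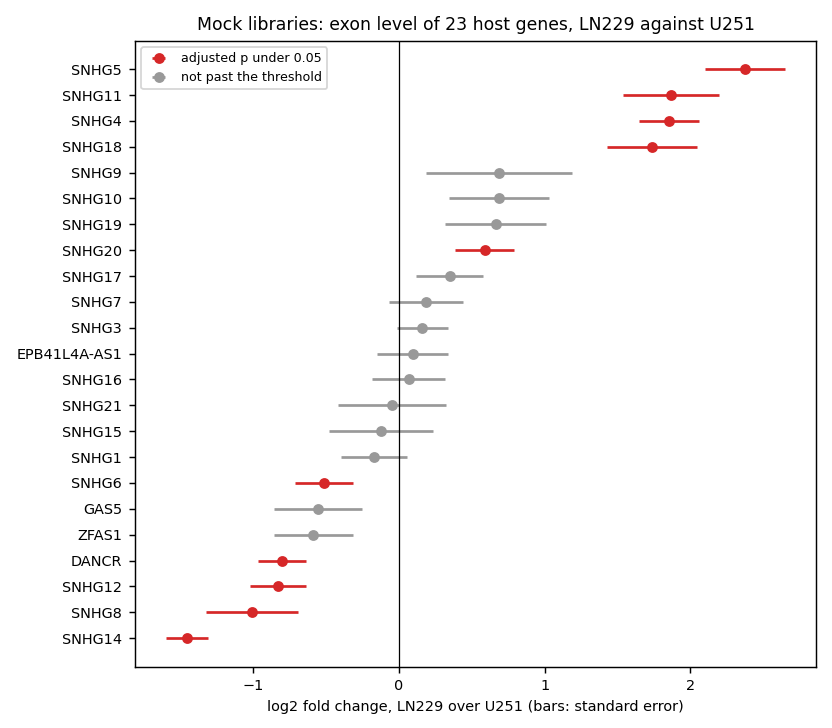
Log2 fold change of LN229 over U251 in the mock libraries on exon reads for the 23 tested host genes, sorted; bars are standard errors and red marks an adjusted p under 0.05. SNHG5 (2.38) and SNHG14 (-1.45) mark the ends.

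Genes that act on such transcripts or on snoRNAs, protein-coding snoRNA hosts and stress response genes were read from lists. Of 19 proteins of box C/D and H/ACA particles and their assembly, 0 passed with XRN2 siRNA in either line, with a median log2 fold change against control siRNA of -0.45 in LN229 and -0.06 in U251. Fibrillarin (FBL), the box C/D methyltransferase, was at -0.68 ± 0.19 (adjusted p 0.0624, edgeR) in LN229 and -0.26 ± 0.18 (adjusted p 1) in U251. Of 18 nonsense-mediated decay factors 0 passed, with medians of -0.14 and -0.00. Of 21 debranching and exonuclease genes 1 passed in each line, XRN2 itself. Of 47 protein-coding snoRNA hosts 1 passed in LN229, RCC1, and 0 in U251, with medians of -0.34 and 0.02. The 17 stress response genes had 0 calls in either line, with a median of -2.05 in U251 against mock, where mock replicate 2 stood apart. The LN229 medians of these lists are against the same control siRNA libraries as those of the noncoding hosts, and against mock they were -0.20 for the particle proteins and -0.08 for the protein-coding hosts.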

How the data were processed

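The deposited tables, 1 per library, give counts of reads per gene in exons, exon-exon junctions and introns (total and unique), with TPM and RPKM that were not used. The submitters' processing notes name GRCh37 (hg19), yet 96.8% of the 57836 gene IDs shared with GENCODE 29 (GRCh38) lie at its positions, including 22 of 26 members, so positions are given as GRCh38. Neither an aligner nor a definition of unique reads is stated in the labels. Total exon reads were tested with edgeR 4.0.16 (R 4.3.3) in a quasi-likelihood fit of 12 libraries, 1 mean per group, with 6 residual degrees of freedom, TMM factors and filterByExpr (minimum 10, total 15), with Benjamini-Hochberg adjustment over 14232 genes. Unique intron reads were tested likewise, and exon against intron with a library term. CPM use TMM factors. DESeq2 1.42.0, other filters and scalings, and leaving out libraries were alternatives. Values are given in every library for GAS5, ZFAS1, SNHG1, DANCR, EPB41L4A-AS1 and the members with the highest mean exon CPM, and members past a threshold are named. The members and lists were chosen with earlier results of these data known. Scripts were tested on simulated data.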

Additional observations from a re-analysis of the deposited data

How the results depend on the processing

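Main counts of members called were 0 in every XRN2 siRNA comparison. In LN229 against control siRNA on exon reads 1 member was called with DESeq2 size factors, without TMM factors or at a minimum of 5 CPM (SNHG4 each time), 5 without a filter on low counts, and 0 to 6 when each library in turn was left out. The 6 came without control siRNA replicate 2, where the median was -0.59. In LN229 against mock 1 member was called without the filter and 2 (SNHG1 and SNHG14) without both libraries that stood apart, a choice made after seeing the data. In U251 against mock 3 were called without the filter and 0 to 4 with a library left out, 4 without mock replicate 1 (GAS5, SNHG1, SNHG15 and SNHG17). For the mean of both lines the counts were 1 without the filter and 0 to 5, for the difference between lines 0 to 2, for control siRNA against mock 0 to 3 in LN229 and 1 without the filter and 0 to 2 in U251, for introns 0 to 2 in LN229 against control siRNA and 0 to 1 in U251 against mock, and for exon against intron 0 to 2 in LN229 against control siRNA. The share of all genes called at each of these settings is not given here, so these counts are not read as a result about the hosts. Each fit without 1 library left 1 library in that group. Without U251 mock replicate 1, the only U251 mock library was replicate 2, which stood apart. The cause was not tested. The difference between lines had a median of -0.37 over the members, and 0.12 without both libraries that stood apart. Between groups, correlations of the replicate 1 minus replicate 2 differences over genes ran from -0.0883 to 0.122. Each group gives only 1 such difference, and the labels do not say whether libraries with the same number were handled together. These correlations therefore cannot decide whether the libraries were paired. With a replicate block 0 members were called with XRN2 siRNA in either line.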
